A study of Homo sapiens with 12 samples.

Results

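The genes described here are 45 genes of the early secretory pathway, the route by which a new secretory or membrane protein enters the endoplasmic reticulum (ER) and travels to and from the Golgi. They were chosen by name and grouped into 5 steps, namely the signal recognition particle (SRP) and its receptor (7 genes), the translocon with the TRAP complex and signal peptidase (13 genes), the COPII coat (11 genes), the COPI coat (7 genes) and the cargo and retrieval receptors (7 genes). All 45 were found among the 57736 genes of the count files. The rule that picks them uses names and no measured value, but they were proposed with earlier results of these data known.

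The libraries came from 2 human cancer cell lines, HepG2 from a liver cancer and Ls174 from a colon cancer, both labelled wild type. Cells were left untreated or received HME, a methanol extract of the red seaweed Hypnea musciformis, at 0.7 mg/ml for 24 h by the labels (the study's methods give a slightly higher concentration), and each of the 4 groups had 3 biological replicates. The labels do not say how the replicates were grown apart, so p values measure the spread between these libraries. Libraries were made from the 3′ ends of mRNA, so a transcript gives about 1 read whatever its length. Levels are given as CPM, counts divided by library size and brought to a common scale by the trimmed mean of M values (TMM) in each comparison, and members can therefore be compared with each other on this scale without dividing by length. Because RNA was taken from whole cultures, fewer cells of a kind and less RNA per cell cannot be told apart.

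A protein bound for secretion carries a signal peptide, which SRP recognises as it leaves the ribosome and carries to its receptor on the ER. The chain then threads through the Sec61 channel, TRAP assists at the channel, and signal peptidase removes the signal peptide. Folded cargo is packed into COPII vesicles that bud towards the Golgi, while COPI vesicles bring escaped ER proteins and empty receptors back. LMAN1, LMAN2, SURF4 and the p24 proteins TMED2 and TMED10 select cargo, and the KDEL receptors return resident chaperones to the ER. Hepatocytes and colon epithelium both use the route heavily, for plasma proteins and for mucins and surface glycoproteins respectively. Several of its genes are known targets of the unfolded protein response, in which the factors XBP1 and ATF6 bind promoters.

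The 12 libraries held between 1790841 and 3656662 counts, and HepG2 control 2 and Ls174 control 1 stood apart in the members. HepG2 control 2 was the highest or lowest of its 3 controls for 41 of 45 members, and Ls174 control 1 likewise for 41, against 21 to 38 members for any other library. In HepG2 control 2 a member lay a median of 0.62 log2 units from the mean of the other 2 controls, and in Ls174 control 1 it lay 0.52 units away. Summed over 8 liver genes, the HepG2 libraries held 18200 to 21447 CPM untreated and 12873 to 14057 CPM with HME. The part of this lower liver level in the HepG2 results was not tested. The Ls174 libraries held 0 to 127 CPM, with 127 CPM in Ls174 control 3, where all 8 liver genes exceeded 3 counts. Ls174 HME 1 held 57.9 CPM, with 5 of them above 3 counts, and the other Ls174 libraries at most 9.53 CPM. The part of these liver counts in the Ls174 results was not tested. Summed over 8 colon genes, the Ls174 libraries held 377 to 446 CPM and the HepG2 libraries 69.8 to 209 CPM. The colon markers CEACAM5, CEACAM6 and MUC2 were near 0 in Ls174, at most 6.05, 2.96 and 2.17 CPM. VIL1, also among the 8, leaned the other way with overlapping ranges, at 52.9 to 188 CPM in HepG2 and 42.3 to 79.2 CPM in Ls174. In HepG2 HME 2 the collagen transcript COL1A1 reached 551 CPM, against 0 to 6.06 CPM in the other HepG2 libraries. In the same library COL1A2 stood at 408 CPM (others at most 3.23) and VIM at 60.8 CPM (others at most 1.87). SPARC stood at 119 CPM (others 23.7 to 83.9), while FN1 at 991 CPM lay within the range of the other HepG2 libraries. The part of these mesenchymal transcripts in the results was not tested. Of 5 blood genes, PTPRC was at 0 in every library, the hemoglobin genes were at most 3.74 CPM, and LYZ stood at 90.9 to 552 CPM in HepG2 and at most 4.61 CPM in Ls174. The blood genes summed to 94.7 to 553 CPM in HepG2, with the lowest sum in HepG2 control 2. Of 3 endothelial genes, KDR was at 0 in every library and VWF reached 3.11 CPM in HepG2 control 2. The part of LYZ in the HepG2 results was not tested.

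A short element that the choice of genes did not use was more frequent in the promoters of the members than in all promoters, though most members lacked it. The element TGACGTGG, known as the core of the site that XBP1 and ATF6 bind, was searched on both strands of RefSeq promoters (GRCh38.p14, 250 bases before to 50 after an annotated start). Promoters were given for 41 of the 45 members, with none for SRPR, SPCS1, SEC24D and KDELR2. The element occurred in the promoters of 10 of the 41 members (24.4%), against 0.729% of all 35116 promoters and 1.32% of the 8611 tested genes with a promoter. Its 6-base core ACGTGG, which also counts every longer match, occurred in 23 of the 41 (56.1%), against 9.72% of all promoters and 16.3% of tested genes. The classical ER stress element ERSE, CCAAT and CCACG with 9 bases between them, occurred in no member and in 0.0769% of all promoters. The cyclic AMP element TGACGTCA was found in no member and in 1.85% of all promoters. These are matches of letters, and no binding was measured.

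The 10 members with the 8-base element are shown because the element joins steps that are otherwise distinct, from SRP to the COPI coat. Each line gives the bases around a match, read 5′ to 3′ on the strand of the gene, with the element in capitals (CCACGTCA where it lies on the other strand). COPB2 carries it at 2 places.
SRP19 (chr5:112861164-112861193, plus strand): aagtcttcatgCCACGTCAgagactagaga
SEC62 (chr3:169966779-169966808, plus strand): ccctcctcgctCCACGTCAgagggaaccgg
SSR3 (chr3:156554148-156554177, minus strand): tctgataacagCCACGTCAgcaaggaaact
SSR4 (chrX:153794528-153794557, plus strand): tcagggaggggCCACGTCAgtgctgccaga
SEC16A (chr9:136484707-136484736, minus strand): tggccctggtgCCACGTCAgccggactgaa
SEC23A (chr14:39103221-39103250, minus strand): tcccctcctctTGACGTGGcagaggcggcg
SEC24A (chr5:134648595-134648624, plus strand): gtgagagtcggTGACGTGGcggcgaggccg
COPA (chr1:160343227-160343256, minus strand): gagagggtcgcTGACGTGGaggcgtccgaa
COPB1 (chr11:14499841-14499870, minus strand): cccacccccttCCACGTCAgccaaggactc
COPB2, first match (chr3:139389825-139389854, minus strand): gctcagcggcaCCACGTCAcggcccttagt
COPB2, second match (chr3:139389632-139389661, minus strand): tcccggaagttCCACGTCAgtcagtctgac

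Of 8 members lower with HME in Ls174 cells by the unadjusted rule described further on, SSR1, SURF4 and TMED2 carried only the 6-base core. SPCS3, SAR1B, LMAN1 and KDELR1 had no match, and KDELR2 had no promoter given. Of all 41 members with a promoter, 56.1% carried the core. The matches of SSR1, SURF4 and TMED2 are shown so that they can be set beside the longer element, again with the core in capitals.
SSR1, first match (chr6:7313320-7313347, minus strand): gcagcagccggCCACGTgacttcccggt
SSR1, second match (chr6:7313270-7313297, minus strand): gcgctgagcagCCACGTcggcggcggtc
SURF4 (chr9:133376097-133376124, minus strand): aggcttggcctACGTGGcagccgctgga
TMED2 (chr12:123584446-123584473, plus strand): tgcctccctttACGTGGcagctgcggga

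**Figure D1:**
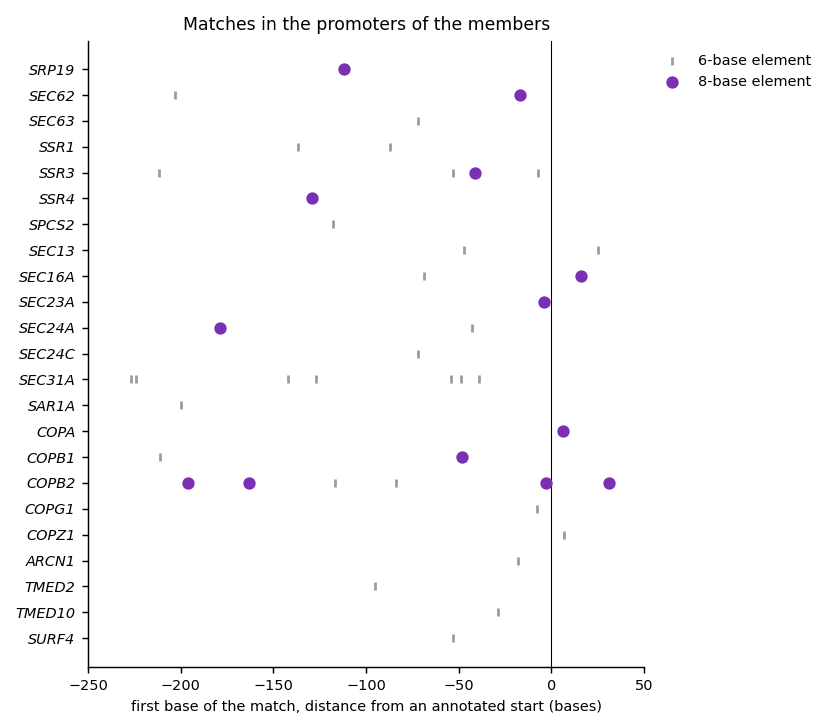
Positions of the 8-base element (filled circles) and of its 6-base core (grey ticks) in the promoters of the members that carry them, with the distance of the first base from an annotated start on the x axis in bases and 1 gene per row. Genes with several annotated starts show a match once for each start, so the 4 circles of COPB2 are 2 matches seen from 2 starts. The 10 genes with a circle come from every step except the cargo receptors.

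HME against control was tested first in HepG2 cells, to see whether the secretory route of a plasma protein producing line responded. No member passed an adjusted p of 0.05 (edgeR, Benjamini-Hochberg over 11343 genes), where 3.31% of all tested genes did. At an unadjusted p under 0.05 there were 2 members. DESeq2 called 1 member at an adjusted p of 0.05, where it called 623 of 11343 genes higher and 410 lower. The study's methods take a binomial test p under 0.05 with a log2 fold change beyond 0.58. Here the same limits were put on the unadjusted edgeR p, which is not the study's test, and this is called the unadjusted rule. By it, SRP68 and SEC24D were higher and no member was lower. That is 4.44% of members higher, against 11.3% of all tested genes higher and 10.9% lower. The median log2 fold change of the members was 0.18, against -0.04 for all tested genes, and 28 of 45 were positive. With scaling by library size the median was 0.0043 and 23 members were positive, against a median of -0.20 for all genes. All 3 HME libraries lay above all controls for 7 members (15.6%, against 16.6% of all tested genes) and below them for 2 (4.44%, against 14.2%).

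In Ls174 cells the same comparison gave more calls among the members, and the cargo and retrieval receptors were all on the lower side. SPCS3, a subunit of signal peptidase, fell at an adjusted p of 0.046 and was the 1 member of 45 to pass, where 1.18% of all tested genes did. It passed in 8 of 16 alternative settings, in which its adjusted p reached 0.34 and its log2 fold change lay between -1.11 and -0.92. Under the rule with the fold limit, 4 members were higher (8.89%, against 4.11% of all tested genes) and 8 were lower (17.8%, against 7.85%). The 8 lower members were SSR1, SPCS3, SAR1B, LMAN1, TMED2, SURF4, KDELR1 and KDELR2, and the 4 higher ones were SEC61B, SEC23B, SEC24D and COPE. The median log2 fold change of all 45 was 0.08, against -0.003 for all tested genes. Both directions were thus present at once, with 9 members whose HME libraries lay above all controls (20%, against 11.5% of all tested genes) and 9 below (20%, against 12.3%).

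Leaving out a single control changed how many members passed. Without Ls174 control 1, 11 members passed an adjusted p of 0.05, which is 24.4% of members against 8.39% of all genes tested without that library. They were SPCS3, SSR1, SEC63, SAR1B, LMAN1, TMED2, SURF4 and KDELR2 on the lower side, and SEC61B, SEC23B and COPE on the higher side. When any other single Ls174 library was left out instead, no member passed. In HepG2 cells, SEC24D alone passed without HepG2 control 2, which is 2.22% of members against 7.74% of all genes.

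**Figure D2:**
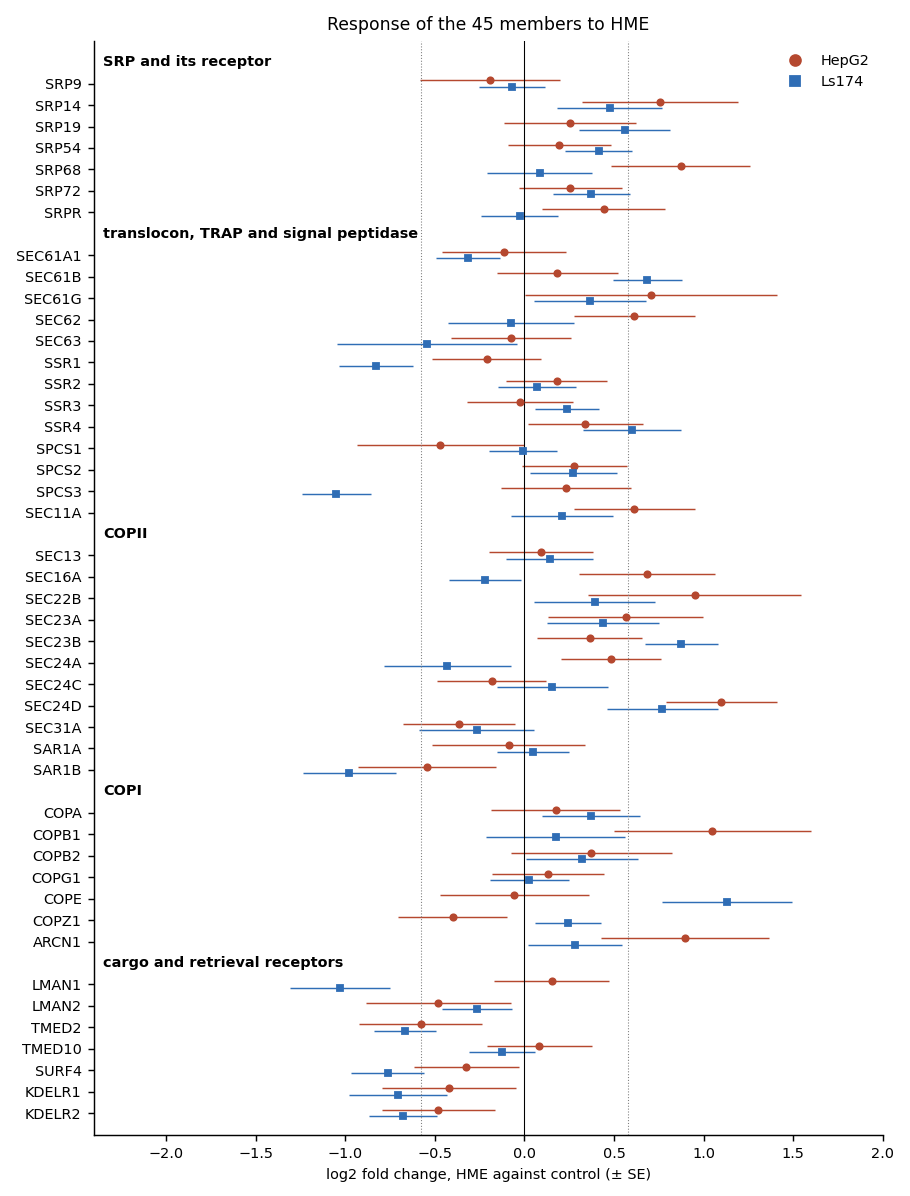
Log2 fold change of HME against control, with its standard error, for each of the 45 members on the x axis, in HepG2 (circles) and Ls174 (squares), grouped by step, with dotted lines at a log2 fold change of 0.58 in either direction. In Ls174 all 7 cargo and retrieval receptors lie left of 0 and all 7 COPI subunits right of it. COPG1 turned negative under library size scaling, and also without Ls174 control 2 or without Ls174 HME 2. COPB1 turned negative without Ls174 control 1 and in a binomial test on summed counts.

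The difference between the lines was tested as an interaction, coded as the HepG2 effect minus the Ls174 effect. No member passed an adjusted p of 0.05, where 0.644% of 13040 genes did, nor did any with DESeq2, and 2 had an unadjusted p under 0.05. SPCS3 and LMAN1 passed the unadjusted rule, which is 4.44% of members against 13.2% of all genes. For SPCS3 the difference was 1.24 with a standard error of 0.44 (adjusted p = 0.23), and for LMAN1 it was 1.15 with a standard error of 0.43 (adjusted p = 0.26). The calls in Ls174 are therefore not shown to be particular to that line.

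SRP, a particle of proteins on an RNA scaffold, was represented by 6 protein genes, and the 7th gene of the step, SRPR, encodes the receptor subunit that docks it to the ER. Log2 fold changes in HepG2 ran from -0.19 (SRP9) to 0.87 (SRP68), with 6 of 7 positive. In Ls174 they ran from -0.07 (SRP9) to 0.56 (SRP19), with 5 of 7 positive. None passed an adjusted p of 0.05 in either line. Summed over the step, the HepG2 controls held 451 to 944 CPM and the treated libraries 983 to 1182 CPM, which overlapped under library size scaling.

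SRP68, which binds the SRP RNA together with SRP72, had 26.3, 20.8 and 48.2 CPM in the HepG2 controls and 75.8, 46.5 and 52.8 CPM with HME. Only HepG2 control 3 reached the range of the treated libraries. The log2 fold change was 0.87 with a standard error of 0.39 (adjusted p = 0.22), and in Ls174 it was 0.08 with a standard error of 0.29. SRP54, the subunit that grips the signal peptide, had 56.6, 52.5 and 48.6 CPM in the Ls174 controls and 68.9, 76.2 and 64.8 CPM with HME. The groups did not overlap, but the change of 0.41 with a standard error of 0.19 had an adjusted p of 0.39. SRP19, needed for SRP54 to join the particle, had 26.1, 44.1 and 43.6 CPM in the Ls174 controls and 63.4, 57.3 and 48.4 CPM with HME, with the lowest value in Ls174 control 1. Its log2 fold change was 0.56 with a standard error of 0.26 (adjusted p = 0.39). The most abundant gene of the step was SRP14, which with SRP9 forms the part that slows elongation, at 424 ± 220 CPM (SD, n = 3) in HepG2 controls and 715 ± 87.4 CPM with HME. Its Ls174 levels were 454 ± 142 and 630 ± 170 CPM, and it passed in neither line, although the HepG2 groups did not overlap. Of the counts of SRP14, 98.3% came from regions that overlap EIF2AK4 on the opposite strand, and of those of SRP19, 99.7% from regions that overlap CTC-554D6.1 on the same strand. SRP9 is uncertain, since its processed copy SRP9P1 took 3407 counts over the 12 libraries against 2254 for SRP9 itself.

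The translocon step gave calls on both sides in Ls174, while its signs were divided much like those of all genes there. Of its 13 genes, 8 were positive in HepG2 (61.5%, against 47.7% of all tested genes). In Ls174, 7 were positive (53.8%, against 49.9%). HepG2 gave no call by either rule. In Ls174, SPCS3 and SSR1 were lower and SEC61B was higher under the unadjusted rule.

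SPCS3 encodes the glycosylated subunit of signal peptidase, and its counts came to 99.9% from the last region, at chr4:177249482-177253593 (hg19, plus strand), which overlaps the annotated 3′ UTR. It had 249.1, 191 and 195 CPM in the Ls174 controls and 107, 98.9 and 101 CPM with HME. Every treated library lay well below every control, and the treated values were close together. The log2 fold change was -1.05 with a standard error of 0.19. In HepG2, SPCS3 stood at 53.7, 27.5 and 63.8 CPM in controls and 55.9, 66.8 and 48.3 CPM with HME, so the groups overlapped (log2 fold change 0.23 with a standard error of 0.36). The other signal peptidase genes gave no call in Ls174. SPCS1 had a log2 fold change of -0.01, SPCS2 of 0.27 and the catalytic subunit SEC11A of 0.21 there, and the copy SPCS2P4 took 2211 counts beside the 4361 of SPCS2.

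SSR1 encodes the alpha subunit of TRAP, the complex that sits beside the channel. It had 241, 190 and 174 CPM in the Ls174 controls and 127, 104 and 109 CPM with HME, and the groups did not overlap. Its change was -0.83 with a standard error of 0.21 (adjusted p = 0.12). The other TRAP subunits were positive in Ls174, with SSR2 at 0.07, SSR3 at 0.24 and SSR4 at 0.60 on the log2 scale, none of them called. In HepG2 the TRAP subunits lay between -0.21 (SSR1) and 0.34 (SSR4).

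SEC61B, the small beta subunit of the channel, had 243, 275 and 243 CPM in the Ls174 controls and 460, 409 and 355 CPM with HME. All treated libraries were above all controls. Its log2 fold change was 0.69 with a standard error of 0.19 (adjusted p = 0.16), against 0.18 with a standard error of 0.34 in HepG2. The pore subunit SEC61A1 was lower in every treated Ls174 library, at 91.2 ± 5.61 CPM (SD, n = 3) against 114 ± 7.61 CPM in controls, with a log2 fold change of -0.31 that passed neither rule. SEC61G, the gamma subunit, varied between replicates more than it differed between groups, with 71.0 ± 53.0 CPM in HepG2 controls and 116 ± 114 CPM with HME. SEC62 and SEC63, which assist posttranslational import, gave no call, although SEC63 passed in Ls174 without control 1 at a log2 fold change of -0.97.

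The COPII coat had calls in both directions and the largest log2 fold change of any member in HepG2. Of its 11 genes, 7 were positive in each line. Its calls were SEC24D in HepG2, and SEC23B and SEC24D (higher) and SAR1B (lower) in Ls174, all by the unadjusted rule. SEC24D was the 1 member called in both lines. Summed over the 11 genes, the level was 808 to 956 CPM in the HepG2 controls and 1024 to 1067 CPM with HME, and 633 to 641 CPM in the Ls174 controls and 693 to 766 CPM with HME. The sums did not overlap in either line, but under library size scaling those of HepG2 did.

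SEC24D belongs to the inner coat, where the SEC24 proteins bind cargo signals. It had 28.2, 26.9 and 41.7 CPM in the HepG2 controls and 76.1, 62.6 and 69.1 CPM with HME, and 9.79, 17.1 and 14.9 CPM in the Ls174 controls and 29.9, 21.9 and 20.3 CPM with HME. The groups did not overlap in either line. The log2 fold change was 1.10 with a standard error of 0.31 in HepG2 (adjusted p = 0.085) and 0.77 with a standard error of 0.31 in Ls174 (adjusted p = 0.34). Its counts came from more than 1 place along the gene. The last region, at chr4:119643781-119644810 (hg19, minus strand), held 83.3% to 100% of its counts in the Ls174 libraries but 0% to 77.4% in the HepG2 libraries. A region further upstream, at chr4:119656882-119657724, held 14.8% to 86.4% of the counts in HepG2 and at most 3.5% in Ls174, and overlaps annotated exons of the gene. With the last region only, the HepG2 change was 0.83 with an adjusted p of 0.59. The other cargo binding subunits differed from it, with SEC24A at 0.48 in HepG2 and -0.43 in Ls174, and SEC24C at -0.18 and 0.16.

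SEC23B, which partners SEC24 and activates the GTPase SAR1, had 74.0, 88.9 and 94.7 CPM in the Ls174 controls and 185, 142 and 146 CPM with HME. All treated values exceeded all controls, by a log2 fold change of 0.87 with a standard error of 0.20 (adjusted p = 0.10). In HepG2 the groups did not overlap either, and the change was 0.36 with a standard error of 0.29. Its paralogue SEC23A had log2 fold changes of 0.56 in HepG2 and 0.44 in Ls174, with standard errors of 0.43 and 0.31 and overlapping groups.

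SAR1B, the GTPase that starts coat assembly and is needed for chylomicron export, was on the other side. It had 53.3, 31.8 and 41.7 CPM in the Ls174 controls and 19.7, 21.5 and 22.8 CPM with HME, with no overlap and a log2 fold change of -0.98 with a standard error of 0.26 (adjusted p = 0.14). In HepG2 the change was -0.55 with a standard error of 0.38, and the groups overlapped. The paralogue SAR1A had 0.05 in Ls174 and -0.09 in HepG2 on the log2 scale. Its HepG2 sign rested on HepG2 control 2, at 262 CPM against 96.4 and 95.7 CPM in the other controls. Without that library the HepG2 change was 0.58 for SAR1A and -0.78 for SAR1B. The scaffold genes SEC13, SEC16A and SEC31A and the SNARE gene SEC22B gave no call, with log2 fold changes from -0.37 to 0.95 in HepG2 and from -0.27 to 0.39 in Ls174. SEC22B rested on 666 counts over all libraries.

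**Figure D3:**
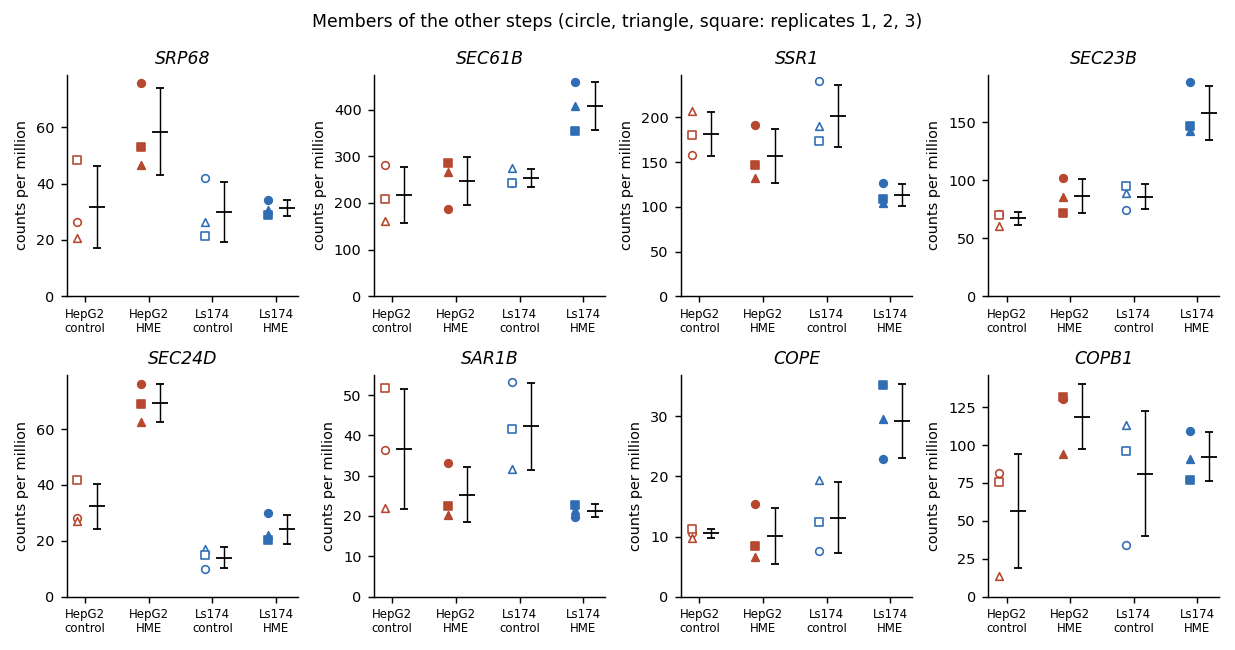
CPM (y axis, from 0) of 8 members of the SRP, translocon, COPII and COPI steps in every library, with untreated libraries as open and HME libraries as filled symbols, and the mean and SD of each group (n = 3) beside them. SEC61B, SEC23B, SEC24D and COPE lie higher with HME and SSR1 and SAR1B lower in Ls174 cells, and for COPB1 the triangle of HepG2 control 2 and the circle of Ls174 control 1 lie far below the other controls.

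The COPI coat, the coatomer complex that returns proteins to the ER, had all 7 subunits positive in Ls174 and 5 of 7 in HepG2, with medians of 0.28 and 0.17 on the log2 scale. Only COPE in Ls174 met the unadjusted rule. Without HepG2 control 2 the HepG2 median was 0.0019, and without Ls174 control 1 the Ls174 median was 0.14 with 6 of 7 positive. Summed over the 7 subunits, the level was 204 to 417 CPM in the HepG2 controls and 432 to 469 CPM with HME. Scaled by library size, these HepG2 sums overlapped, at 178 to 473 CPM in controls and 377 to 466 CPM with HME. In Ls174 the TMM sums were 266 to 453 CPM in controls and 448 to 508 CPM with HME, where 1 control reached the treated range. Under library size scaling 6 of 7 were positive in Ls174 and 3 of 7 in HepG2, where the median became -0.005.

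COPE, the epsilon subunit, had 7.62, 19.4 and 12.4 CPM in the Ls174 controls and 22.8, 29.6 and 35.2 CPM with HME. The treated libraries lay above all controls, with the lowest control in Ls174 control 1. The log2 fold change was 1.13 with a standard error of 0.36 (adjusted p = 0.23). It was the least abundant member, with 519 counts over the 12 libraries, and in HepG2 it was not called (log2 fold change -0.06 with a standard error of 0.42). COPB1, the beta subunit, had 81.5, 13.5 and 75.4 CPM in the HepG2 controls and 131, 94.0 and 131 CPM with HME. The groups did not overlap, and HepG2 control 2 was far below the other controls. The change was 1.05 with a standard error of 0.55 (adjusted p = 0.29), and its partner COPB2 had 0.37 in HepG2 and 0.32 in Ls174. ARCN1, the delta subunit, had 72.3, 18.4 and 45.7 CPM in the HepG2 controls and 58.8, 93.4 and 104 CPM with HME, with an overlap of 1 control and a change of 0.90 with a standard error of 0.47. Without HepG2 control 2 the change was 0.61 for COPB1 and 0.54 for ARCN1. COPA, COPG1 and COPZ1 had log2 fold changes between -0.40 and 0.37 over both lines and no call.

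The cargo and retrieval receptors were the step with the largest share of calls. In Ls174 all 7 had a negative log2 fold change, with a median of -0.68, and 5 of the 7 (71.4%) were lower by the unadjusted rule, against 7.85% of all tested genes. The same 5 had every HME library below every control. All 7 were negative under each of the scalings tried and without each single Ls174 library, while in HepG2 all 7 were negative under library size scaling only among the scalings. In HepG2, 5 of 7 were negative with a median of -0.42, and no receptor was called. Without HepG2 control 2 the HepG2 median was -0.027, with 4 of 7 negative (KDELR1 then at 0.03 and LMAN2 at 0.09). Summed over the 7 receptors, the level was 1482 to 1928 CPM in the Ls174 controls and 1102 to 1193 CPM with HME, and 1513 to 2225 CPM in the HepG2 controls and 1296 to 1479 CPM with HME. The summed level of the treated libraries was below that of all controls in both lines, also when scaled by library size (1550 to 1792 against 1075 to 1149 CPM in Ls174, and 1709 to 1941 against 1149 to 1470 CPM in HepG2).

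TMED2, a p24 protein found in COPI and COPII vesicles, had 175, 165 and 170 CPM in the Ls174 controls and 113, 100.4 and 107 CPM with HME. Both groups were tight and far apart. Its log2 fold change was -0.67 with a standard error of 0.17 (adjusted p = 0.14), and in HepG2 it was -0.58 with a standard error of 0.34 and overlapping groups. Its partner TMED10 had -0.12 in Ls174 and 0.08 in HepG2.

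SURF4, a receptor for soluble cargo such as lipoproteins, had 345, 261 and 253 CPM in the Ls174 controls and 183, 167 and 156 CPM with HME. In HepG2 it had 361, 374 and 312 CPM in controls and 239, 300.4 and 296 CPM with HME. The groups did not overlap in either line, and the changes were -0.76 with a standard error of 0.20 in Ls174 (adjusted p = 0.14) and -0.32 with a standard error of 0.29 in HepG2. Its 3′ region overlaps SURF2 on the opposite strand, and since the strand setting of the counting is not given in the sources used here, reads of the 2 genes cannot be told apart. The same holds for SRP14, SRPR, SEC24C and COPB2, with 98.0% to 98.7% of their counts in such regions.

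LMAN1, the lectin that carries clotting factors V and VIII, had 56.0, 38.8 and 34 CPM in the Ls174 controls and 24.0, 16.5 and 22.1 CPM with HME. No treated library reached a control, and the log2 fold change was -1.03 with a standard error of 0.28 (adjusted p = 0.15). In HepG2 the change was 0.15 with a standard error of 0.32. The related lectin LMAN2 had -0.27 in Ls174 and -0.48 in HepG2, where HepG2 control 2 at 471 CPM stood apart from 171 and 219 CPM in the other controls.

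KDELR1 and KDELR2, the receptors that bind the KDEL signal of chaperones, were both lower in Ls174 by the unadjusted rule. KDELR1 had 653, 375 and 351 CPM in the Ls174 controls and 243, 305 and 295 CPM with HME, and KDELR2 had 153, 176 and 174 CPM against 121, 94.2 and 99.3 CPM. Neither pair of groups overlapped. The log2 fold changes were -0.71 with a standard error of 0.27 (adjusted p = 0.32) and -0.68 with a standard error of 0.19 (adjusted p = 0.17). For KDELR1 the size rested on Ls174 control 1, without which the change was -0.37, whereas KDELR2 then had -0.74. In HepG2 the changes were -0.42 and -0.48 with overlapping groups, and HepG2 control 2 at 915 CPM of KDELR1 stood far above 437 and 449 CPM in the other controls.

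**Figure D4:**
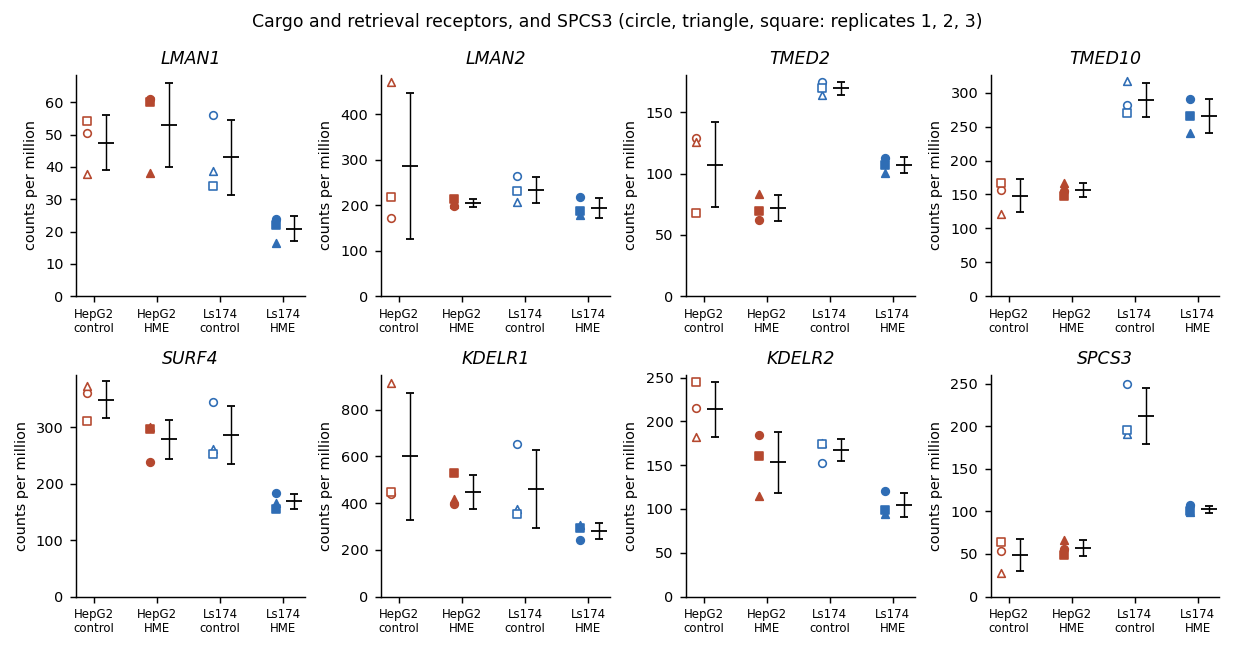
CPM (y axis, from 0) of the 7 cargo and retrieval receptors and of SPCS3 in every library, drawn as in the plot of the other steps. In Ls174 cells LMAN1, TMED2, SURF4, KDELR1, KDELR2 and SPCS3 have every HME library below every control, and KDELR1 is highest in Ls174 control 1 and HepG2 control 2.

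The members with and without the TGACGTGG element were set side by side without a test. In Ls174 none of the 10 members with it was called, and their log2 fold changes ran from -0.43 (SEC24A) to 0.60 (SSR4) with a median of 0.28. All 12 calls by the unadjusted rule fell among the other 35 members, 4 of which had no promoter given, and whose median was 0.05. In HepG2, 9 of the 10 were positive with a median of 0.43, and the other 35 had a median of 0.09 with both calls. Both medians of the 10 rested on single controls. Without HepG2 control 2 the HepG2 median of the 10 was 0.21 with 8 positive, against 0.04 for the other 35. Without Ls174 control 1 the Ls174 median of the 10 was 0.093 with 6 positive, against -0.048 for the other 35.

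Untreated HepG2 and untreated Ls174 cells were compared next, to give the levels from which the lines started. This comparison uses the same control libraries as those above. There were 4 members that differed at an adjusted p of 0.05. SEC31A, SEC23A and SEC24D, all of the COPII coat, were higher in HepG2 (3 of 45, or 6.67%, against 14.2% of 11907 tested genes), and SPCS3 was lower (1 of 45, or 2.22%, against 9.33%).

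SEC31A, which forms the outer cage with SEC13, had 83.0 ± 23.5 CPM (SD, n = 3) in HepG2 and 14.8 ± 3.51 CPM in Ls174, a log2 difference of 2.47 with a standard error of 0.38 (adjusted p = 0.0014). SEC23A had 192 ± 108 CPM against 48.3 ± 19.5 CPM, a difference of 1.99 with a standard error of 0.52 (adjusted p = 0.023), while its paralogue SEC23B was level at 75.9 ± 7.51 and 80.7 ± 11.3 CPM. The lines thus held the 2 paralogues in different proportion. SEC24D had 36.6 ± 9.79 CPM against 13.1 ± 3.65 CPM, a difference of 1.47 with a standard error of 0.40 (adjusted p = 0.026), and with its last region only the difference was 0.71 with an adjusted p of 0.65. SPCS3 had 55.0 ± 22.0 CPM in HepG2 against 199 ± 27.2 CPM in Ls174, a difference of -1.84 with a standard error of 0.39 (adjusted p = 0.0080). The median difference of the 45 members was 0.12, against 0.04 for all tested genes.

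The order of the levels was similar at its ends. KDELR1 (676 ± 295 CPM in HepG2, 430 ± 150 CPM in Ls174) and SRP14 (482 ± 256 and 427 ± 138 CPM) led in both lines, and their spreads overlapped. COPE (11.9 ± 1.02 and 12.4 ± 5.65 CPM) came last in both. The other coatomer subunits lay between 30.5 and 76.5 CPM in group means, so COPE counts were lower than those of subunits with which it assembles.

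**Figure D5:**
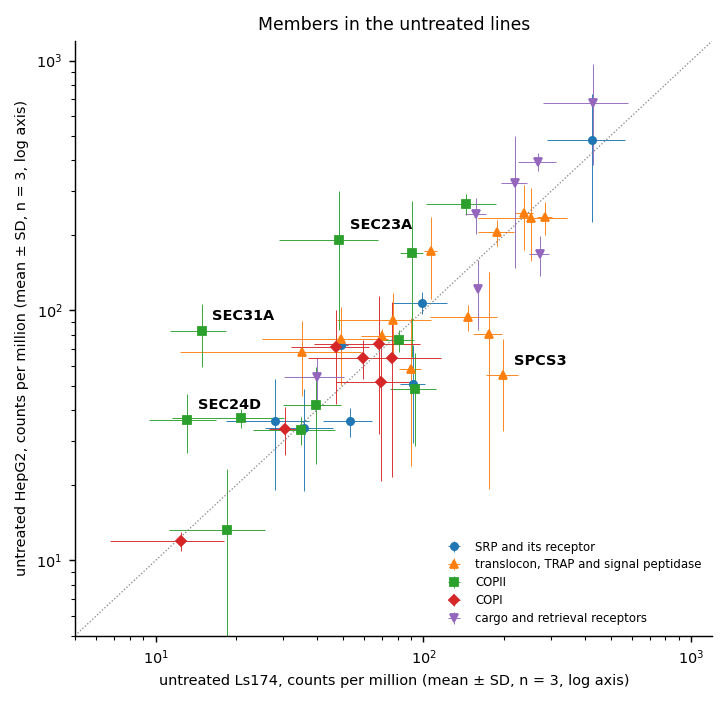
Mean CPM of the 45 members in untreated Ls174 (x axis, log scale) and untreated HepG2 cells (y axis, log scale), with SD as bars (n = 3), symbols by step and a dotted line of equal levels. SEC31A, SEC23A and SEC24D lie above the line and SPCS3 below it, while most other members lie near it.

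Other genes of the pathway were taken from a list of 68 that hold the same steps and the tethers, small GTPases and membrane insertion complexes around them. Of 64 tested in HepG2 and 65 in Ls174, none passed an adjusted p of 0.05 in either line (edgeR), with 7 and 10 at an unadjusted p under 0.05. By the unadjusted rule with the fold limit, 3 were higher and 4 lower in HepG2, and 5 higher and 3 lower in Ls174. These calls are 10.9% of the list in HepG2, against 22.2% of all tested genes, and 12.3% in Ls174, against 11.95%. Among 14 tested further cargo and retrieval receptors, 10 had a negative log2 fold change in each line, where 52.3% of all tested genes in HepG2 and 50.1% in Ls174 did. Their medians were -0.09 and -0.20, and 1 of the 14 was lower by the unadjusted rule in each line (7.14%, against 10.9% of all tested genes in HepG2 and 7.85% in Ls174). TMED7, another p24 protein, had the lowest p in Ls174, at 88.1, 55.8 and 50.5 CPM in controls and 24.4, 26.2 and 30.2 CPM with HME (log2 fold change -1.26 with a standard error of 0.27, adjusted p = 0.076). Between the untreated lines, 8 of 65 were higher in HepG2 at an adjusted p of 0.05 in edgeR (12.3%, against 14.2% of all tested genes). On the lower side there was 1 (1.54%, against 9.33%). The differences with the lowest p were those of TRAM2, which assists at the channel (log2 difference 2.87, adjusted p = 0.0016), the lectin gene LMAN2L (2.17, adjusted p = 0.0018), the SNARE gene GOSR2 (2.10, adjusted p = 0.0069) and EMC10, which had at most 1 count in any HepG2 library.

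The regulators of the unfolded protein response were counted as the other list. Of 12 tested in HepG2, 1 passed an adjusted p of 0.05 in edgeR (8.33%, against 3.31% of all tested genes). This was ERN1, the ER sensor IRE1 that splices XBP1 mRNA, which rose. It had 9.16, 9.79 and 9.42 CPM in controls and 22.1, 32.4 and 25.8 CPM with HME, a log2 fold change of 1.5 with a standard error of 0.33 (adjusted p = 0.040). In Ls174 none of 11 tested passed (edgeR), with 4 at an unadjusted p under 0.05, and the interaction for ERN1 was 1.63 with an adjusted p of 0.26. ATF4, the factor of the translational arm, had log2 fold changes of 1.27 in HepG2 (adjusted p = 0.081) and 0.99 in Ls174 (adjusted p = 0.19). By the unadjusted rule, 4 regulators were higher in HepG2 (33.3%, against 11.3% of all tested genes) and 1 was lower (8.33%, against 10.9%). In Ls174, 1 was higher (9.09%, against 4.11%) and 3 were lower (27.3%, against 7.85%). The 3 lower ones were EIF2AK3, the sensor PERK (-1.27, adjusted p = 0.11), the protease gene MBTPS1 (-0.86, adjusted p = 0.22) and the sensor ATF6 (-0.66, adjusted p = 0.35). CREB3L2, a factor known to act on COPII genes, was higher in untreated HepG2 than in untreated Ls174 cells, by 1.81 on the log2 scale (edgeR, adjusted p = 0.013). With HME it was lower in HepG2, at 39.3, 51.4 and 27.9 CPM in controls and 15.4, 25.9 and 25.8 CPM with HME, without overlap. In Ls174 its groups overlapped. Whether CREB3L2 relates to the levels of the COPII members was not tested.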

How the data were processed

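RNA of 12 cultures was measured. The authors prepared 3′ libraries (QuantSeq, Ion Proton), checked reads with FASTQC, aligned them to hg19 with Hisat2 and counted with metaseqR2, and the deposited values are whole-number counts per 3′ region, not normalized. The handling of multiply aligned reads and of strand is not given in the sources used here. Region counts were summed per gene. Each line was fitted on its 6 libraries, the interaction on all 12, with edgeR 4.0.16 in R 4.3.3 (TMM, filterByExpr, two-sided quasi-likelihood F test). P values were adjusted by Benjamini-Hochberg over every gene tested, and the SE came from the F statistic. All 45 members passed the filter. The members and lists were chosen with earlier results of these data known. Per step, members with an adjusted p under 0.05, filled up to 3 by the lowest p, are given in full, with every library value. Paralogues are set beside them, some with a log2 fold change only. Of the other genes, up to 4 passing per comparison are named. SRP14, SEC61A1, SEC61G, SEC63, COPZ1, TMED7, ATF4, EIF2AK3, MBTPS1, ATF6, KDELR1 and members listed for their calls were named after their values were seen. The floor of 3 counts corresponds to 0.723 to 1.84 CPM per library in the treatment comparisons, for counting error only. The most counted region of 44 members overlaps a 3′ UTR in GENCODE on GRCh37, and SEC22B had no match. Alternatives were DESeq2 1.42.0, a binomial test on summed counts, other scalings and filters, the most counted region, 1 fit of all libraries, a replicate block and leaving out each library. The edgeR step was tested on simulated data. Figures used matplotlib 3.10.9.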

Additional observations from a re-analysis of the deposited data

Results flagged for a closer look

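COPZ1, the zeta subunit of coatomer, had every HME library below every control in HepG2 cells (50.9, 70.4 and 50.7 CPM in controls, 50.01, 42.6 and 37.1 CPM with HME) and above every control in Ls174 cells (66.9, 60.9 and 61.8 CPM in controls, 72.5, 82.3 and 69.4 CPM with HME). It was the 1 member whose libraries separated in opposite directions in the 2 lines. The test of that difference did not pass, with a difference between the lines of -0.65 on the log2 scale, a standard error of 0.34 and an adjusted p of 0.43 (edgeR interaction). The gap between the groups was under 1 CPM in HepG2.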

How the results depend on the processing

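Of 272 values of the members given in full, which are those with the lowest p, 229 stayed on their side of the threshold, 35 newly passed, 8 no longer passed and 0 changed direction. Over all 45 members, 0 to 11 changed sign under an alternative in HepG2 and 0 to 5 in Ls174. There were 11 in HepG2 with the binomial test, 5 with library size scaling and 9 without HepG2 control 2. SAR1A (0.58), KDELR1 (0.03) and LMAN2 (0.09) were among these 9. In Ls174 there were 3 without Ls174 control 1, COPB1 (-0.18) among them. In HepG2, 0 members passed an adjusted p of 0.05, against 1 with DESeq2, 1 in a fit of all 12 libraries and 30 with the binomial test, which pools replicates and so ignores their spread. Leaving out single libraries gave 0 to 1. By the unadjusted rule with the fold limit, 2 HepG2 members were called, against 9 with the binomial test, 5 without a filter on low counts, 4 with the replicate block, 1 each with library size scaling, upper quartile scaling, DESeq2 size factors, the most counted region and a fold limit of 1, and 1 to 5 without single libraries. The HepG2 median of 0.18 became -0.029 with the binomial test and 0.0043 with library size scaling. In Ls174, the 1 member with an adjusted p under 0.05 became 7 with DESeq2, 30 with the binomial test and 2 without a filter. It became 0 with DESeq2 size factors, 0 in the fit of all libraries, 0 with the block and 0 to 11 without single libraries. DESeq2 also called more genes in general, with 143 of 11319 higher and 291 lower in Ls174, where edgeR called 36 and 98. In HepG2 it called 623 of 11343 genes higher and 410 lower, where edgeR called 314 and 61. The 12 Ls174 members called by the unadjusted rule became 3 with a fold limit of 1. For the interaction, the 2 called by that rule became 4 with upper quartile scaling, 4 where every library had at least 10 counts, and 1 to 5 without single libraries. Between the untreated lines, the 4 members with an adjusted p under 0.05 became 35 with the binomial test, 7 in the fit of all libraries, 2 with the block and 2 to 5 without single libraries, with 2 left when HepG2 control 1 or Ls174 control 3 was omitted. By the unadjusted rule, 6 became 14 with the binomial test, 10 with library size scaling and 13 in the fit of all libraries, and the median of 0.12 became -0.076 with library size scaling. Except where the construction of the alternative shows it, the cause was not tested. Library size scaling moved the median of all genes from -0.04 to -0.20 in HepG2, with 861 genes higher and 1729 lower by the unadjusted rule against 1282 and 1235, and from 0.04 to -0.17 between the untreated lines, with 1964 and 2255 against 2326 and 1836. Replicate numbers were not used as pairs in the main fit. The deviations of same-numbered control and HME libraries correlated at -0.17, 0.09 and -0.12 in HepG2 and -0.03, -0.01 and -0.05 in Ls174. With 3 libraries per group, these values cannot decide whether same-numbered libraries shared a culture batch. With the replicate block, edgeR called 0 genes higher and 0 lower in Ls174 at an adjusted p of 0.05, against 36 and 98. In HepG2 it called 290 and 59, against 314 and 61. Depth limits COPE and SEC22B most, which rested on 519 and 666 counts over the 12 libraries.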

Other observations

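EMC10, a subunit of the ER membrane complex that inserts transmembrane segments, was on the list of other pathway genes and had at most 1 count in any HepG2 library. Its counts were 0, 0 and 1 in the HepG2 controls and 0, 1 and 0 with HME, against 317, 232 and 237 in the Ls174 controls and 163, 132 and 161 with HME. The difference between the untreated lines had an adjusted p of 0.000138 (edgeR). Its neighbour FAM71E1 had no count in any HepG2 library and 5 to 18 counts in the Ls174 libraries. Other neighbours did have counts in HepG2. SPIB had 0 to 7 there and 0 to 2 in Ls174, ASPDH 0 to 4 and 0, and JOSD2 0 to 5 and 2 to 16. The other tested subunits of the complex were not at 0 in HepG2.

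The libraries HepG2 control 2 and Ls174 control 1 deviated from the other controls of their lines in the same members. The deviation had the same sign for 35 of the 45 members, with a Pearson r of 0.52 across these genes, against 0.36 across 13040 genes, of which 61.2% had the same sign. Genes within a library are not independent, so no p is given. In both libraries the COPI genes COPB1 (-2.59 and -1.61 log2 units), COPB2 (-1.91 and -1.24) and ARCN1 (-1.73 and -0.88) were lower than in the other controls, and KDELR1 was higher (0.91 and 0.81).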
